A study of Mus musculus with 24 samples.

Results

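The genes of endocannabinoid signaling were followed in the prefrontal cortex (PFC) of mice that had gone through chronic social defeat and a single injection of dexamethasone (DEX). The 9 genes were chosen by symbol. They were the CB1 receptor Cnr1, the CB1-interacting protein Cnrip1, the synthesis enzymes Dagla, Daglb and Napepld, and the hydrolases Mgll, Abhd6, Abhd12 and Faah. All 9 were found among the 14074 genes of the normalized count table.

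Endocannabinoids are lipid messengers that a neuron makes on demand from its membrane. The diacylglycerol lipases encoded by Dagla and Daglb release 2-arachidonoylglycerol (2-AG), and the phospholipase D encoded by Napepld releases anandamide and other N-acylethanolamines. Both messengers travel backwards across the synapse to CB1, a Gi/o-coupled receptor on presynaptic terminals, and lower transmitter release. Monoacylglycerol lipase (Mgll), Abhd6 and Abhd12 break 2-AG down, and fatty acid amide hydrolase (Faah) breaks down anandamide. In the PFC this system is known as a brake on excitatory and inhibitory terminals that glucocorticoids can engage.

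The 24 libraries were made from 24 adult male C57BL/6 mice, in 6 groups of 4. Control mice had no defeat. Passive coping (PS) and active coping (AS) mice had 30 days of chronic social defeat by CD1 males and were told apart by clustering of their behavior, so that a phenotype is a position in that clustering and not a separate treatment. Within each phenotype 4 mice received saline and 4 received DEX, a synthetic glucocorticoid receptor agonist, at 2 mg/kg, and the PFC was taken 6 h later. The tissue block held several frontal areas and all cell types together, after removal of the olfactory bulbs. In such tissue a lower value can mean fewer cells of a type or less RNA per cell, and these cannot be told apart. Values are normalized read counts, that is reads on a gene divided by a size factor for the library, and 4 values of a group are given in the order of the mouse numbers.

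Recovered depth was 21121869 to 59439645 reads on genes per library (median 24420130), and each of the 9 genes had at least 337 reads in every library. Depth was uneven between phenotypes. Its medians on saline and DEX were 22869703 and 23492572 in control, 24008146 and 24187702 in PS and 34242532 and 37876626 in AS mice. The DEX labels were checked with Fkbp5, a glucocorticoid receptor target that encodes a chaperone of the receptor. Its mean was 796, 881 and 889.8 normalized read counts in control, PS and AS mice on saline and 3820.1, 3531 and 3355 on DEX, with no overlap between saline and DEX in any phenotype. Pyramidal neuron markers, 6 of 6 in the table, were high in every library, with a summed level of 98632 to 133383. A few libraries stood apart in markers of neighboring tissue. The summed level of 3 olfactory bulb markers (Doc2g, Cdhr1 and Eomes) was 3857 normalized read counts in control saline mouse 117, 3191 in PS DEX mouse 34, 1388 in AS saline mouse 14 and 1319 in PS saline mouse 2. In the other 20 libraries it was 94.9 to 776. Results were therefore also computed without these 4 libraries and with the bulb markers as a covariate, both added after the data had been seen.

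The levels of the 9 genes were compared per kilobase of exon, since longer transcripts collect more reads. Abhd12 and Mgll were highest, at 2601 ± 159 and 2238 ± 253 normalized read counts per kb (SD, n = 24). Cnr1, Dagla, Abhd6, Cnrip1 and Faah followed, in this order, from 821 ± 102 for Cnr1 down to 467 ± 25.6 for Faah. Daglb (148 ± 10.2) and Napepld (127 ± 15.7) were lowest. The steps from Mgll to Cnr1 (2.73-fold) and from Faah to Daglb (3.16-fold) held in 24 of 24 libraries. Between the other neighbors the means differed 1.13-fold to 1.17-fold and the order held in 20 to 23 of 24 libraries, so that single libraries crossed. The 2 genes with the widest relative spread over the libraries were Cnr1 and Napepld, each with a coefficient of variation of 12.4%. That of Faah was the smallest, at 5.49%.

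**Figure D1:**
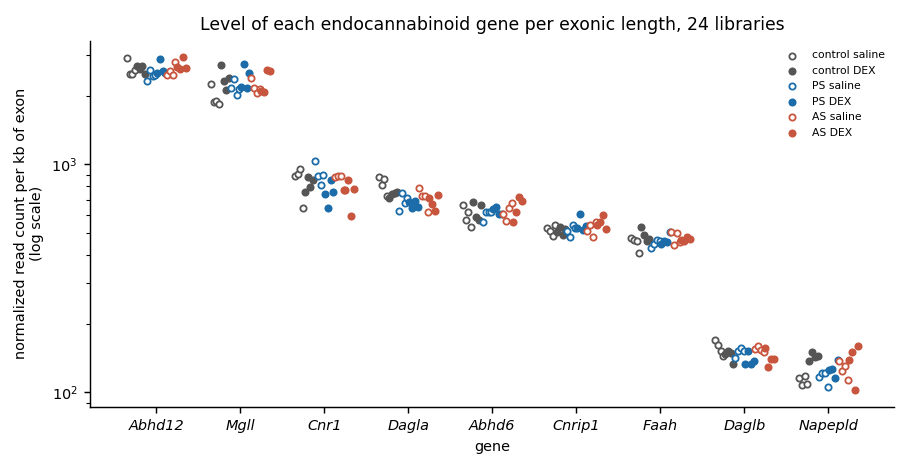
Level of each gene in normalized read counts per kilobase of exon (log axis), 1 point per library (n = 24), open for saline and filled for DEX, in grey (control), blue (PS) and red (AS). Abhd12 and Mgll stand highest, at means of 2601 and 2238, and Daglb and Napepld lowest, at 148 and 127.

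The genes lie apart on the mm10 (GRCm38) genome, and all 9 are annotated as protein coding. On the forward strand are Cnr1 (chr4:33924593-33948831), Daglb (chr5:143464584-143505942), Mgll (chr6:88724412-88828360), Abhd6 (chr14:8002902-8056763) and Cnrip1 (chr11:17051586-17079371). On the reverse strand are Dagla (chr19:10245265-10304877), Faah (chr4:115967145-116017926), Napepld (chr5:21662901-21701396) and Abhd12 (chr2:150832493-150904741). The sequence before the start site is shown for the 3 genes whose mean response to DEX passed the test, because DEX acts through a receptor that binds DNA. Each is the 250 bases before a RefSeq start (GRCm38.p6), 5′ to 3′ on the strand of the gene: Napepld at chr5:21701623-21701872, reverse strand, Mgll at chr6:88724162-88724411 (the first of its 2 starts), forward strand, and Daglb at chr5:143464243-143464492, forward strand. Capitals mark the half-site of the glucocorticoid response element, searched as AGAACA and as TGTTCT, its form on the other strand.
Napepld: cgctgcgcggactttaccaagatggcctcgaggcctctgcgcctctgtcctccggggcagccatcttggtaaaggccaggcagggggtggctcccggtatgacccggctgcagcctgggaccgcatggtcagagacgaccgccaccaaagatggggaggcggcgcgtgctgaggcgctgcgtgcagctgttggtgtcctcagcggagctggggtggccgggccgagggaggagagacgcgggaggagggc
Mgll: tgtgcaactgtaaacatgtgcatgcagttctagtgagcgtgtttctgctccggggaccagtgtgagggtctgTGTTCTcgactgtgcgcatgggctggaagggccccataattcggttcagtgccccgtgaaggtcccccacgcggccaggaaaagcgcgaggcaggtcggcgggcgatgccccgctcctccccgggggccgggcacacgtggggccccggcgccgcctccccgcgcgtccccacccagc
Daglb: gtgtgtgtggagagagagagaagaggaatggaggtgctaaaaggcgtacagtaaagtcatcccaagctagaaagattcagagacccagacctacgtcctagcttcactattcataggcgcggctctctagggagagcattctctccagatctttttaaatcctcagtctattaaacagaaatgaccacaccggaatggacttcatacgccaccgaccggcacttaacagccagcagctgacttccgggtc
The Mgll window shown held 1 half-site, which begins at position -178 from the start. The window of the other Mgll start (chr6:88724454-88724703, not shown) held none, and neither did the Napepld and Daglb windows. Of the other genes with an entry, Faah had 2 half-sites, Cnrip1 had 1, and Cnr1 and Abhd6 had none. Dagla and Abhd12 had no entry in the table used. Of all 32851 windows of this length, 16.1% held a half-site. The full element, AGAACA and TGTTCT with any 3 bases between them, which contains the half-site on both strands, was in 0.00913% of all windows and in none of these genes. These are matches of letters only.

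Comparisons were made with limma on log2(normalized read count + 1), and a gene was called at a Benjamini-Hochberg adjusted p below 0.1 over all 14074 genes. Under chronic stress, 0 of the 9 genes were called in PS mice against control mice, both on saline, where 1.51% of all genes were called. In AS mice 0 of 9 were called against a background of 0.156%, and between AS and PS mice 0 of 9 against 0%. At an unadjusted p below 0.05 these counts were 1, 1 and 0, beside 13.1%, 11% and 4.77% of all genes. edgeR called 0 in each, and DESeq2 called 1 (Dagla), 0 and 0. Over all genes edgeR called 212, 26 and 0 here, and DESeq2 431, 99 and 11. After DEX, 1 of 9 genes was called in control mice (background 6.49%), 0 in PS mice (5.36%) and 0 in AS mice (8.77%). With the DEX response averaged over the 3 phenotypes, 3 of 9 were called (background 15.5%), namely Napepld and Mgll upward (2 of 9, background 7.46%) and Daglb downward (1 of 9, background 8.01%). The unadjusted counts of the DEX comparisons were 2, 1, 0 and 4, beside 15.3%, 13.6%, 18.2% and 22.1% of all genes. edgeR called 1, 0, 0 and 3, and DESeq2 called 2, 0, 0 and 4. Over all genes edgeR called 862, 763, 1330 and 2176, and DESeq2 1006, 903, 1614 and 2338. The values of the groups compared did not overlap for 0 of 9 genes in PS against control, AS against control and AS against PS mice, beside 11.3%, 6.51% and 5.22% of all genes. After DEX this count was 1 of 9 in control, 0 in PS and 0 in AS mice, beside 10.1%, 10.1% and 9.02%. The median absolute log2 difference of the 9 genes was 0.083 in the averaged DEX response, beside 0.061 for all genes.

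**Figure D2:**
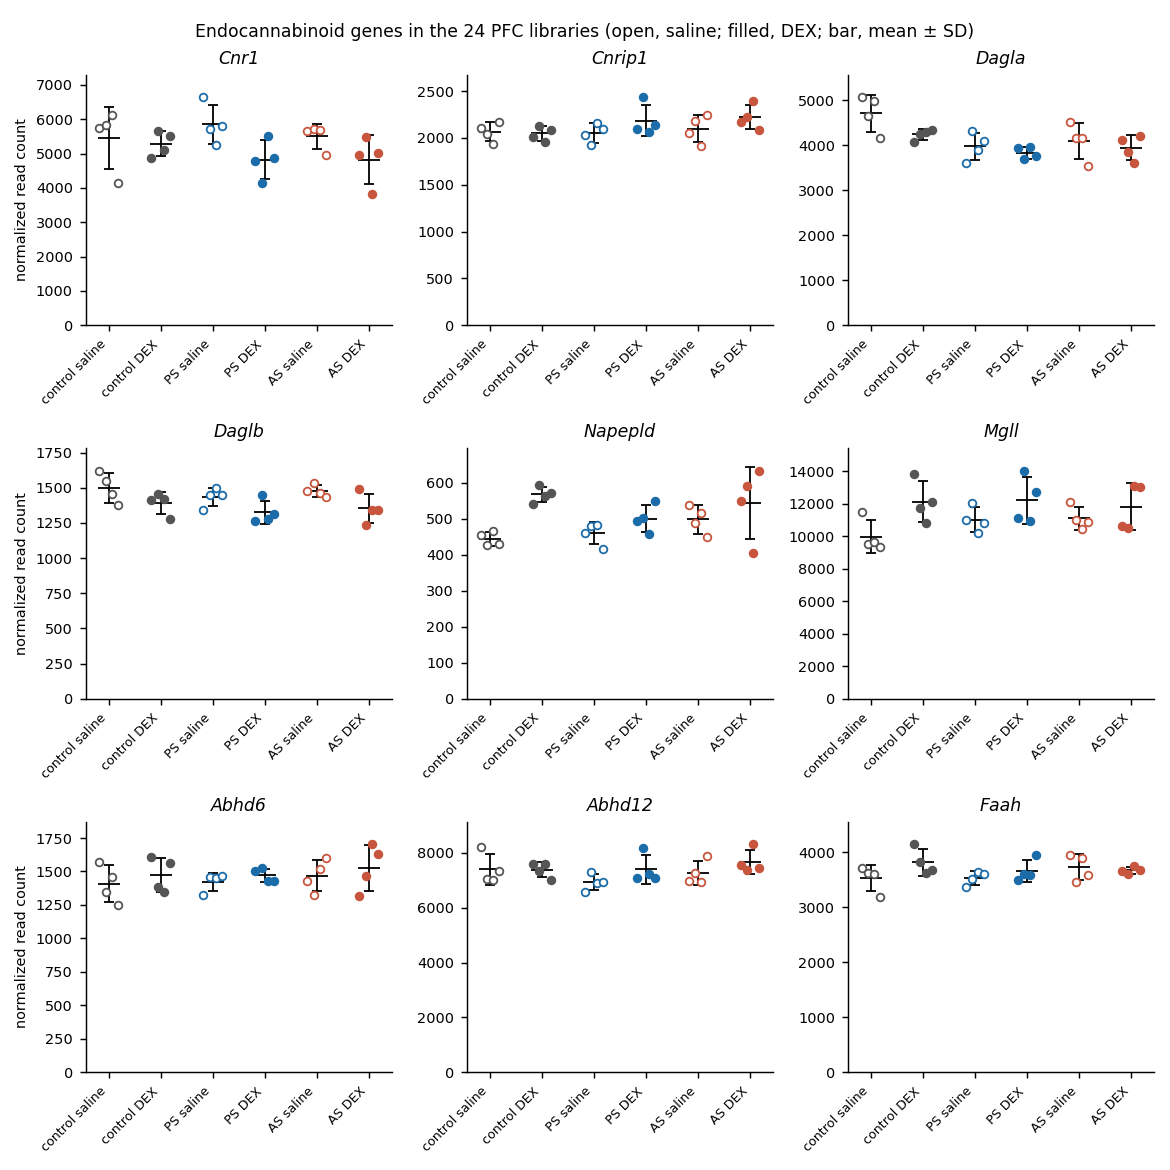
Normalized read counts of the 9 genes in each of the 24 libraries (1 point per mouse, open for saline, filled for DEX), with the mean and SD of each group of 4. Napepld is the gene in which saline and DEX do not overlap in control mice (427 to 466 against 542 to 595); in the other genes and phenotypes saline and DEX overlap.

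**Figure D3:**
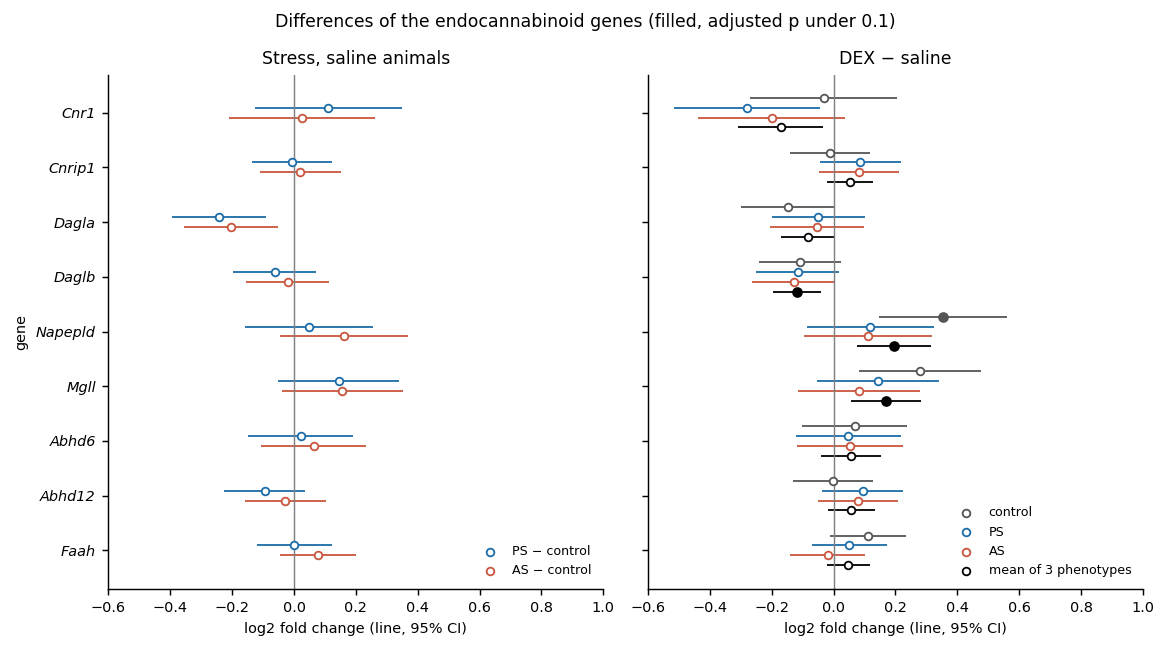
Log2 fold changes with 95% confidence intervals from limma for the stress comparisons on saline (left) and the DEX comparisons (right), with filled symbols for an adjusted p below 0.1. The filled symbols are Napepld in control mice (0.35) and Napepld (0.19), Mgll (0.17) and Daglb (-0.12) in the mean of the phenotypes.

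Cnr1, the receptor, was lower on average after DEX, a difference that missed the threshold in limma and passed it in some alternatives. Its normalized read counts were 5734, 5844, 6133 and 4132 in control mice on saline and 4883, 5670.2, 5099 and 5498 on DEX. In PS mice they were 6638, 5714, 5249 and 5799 on saline and 4793, 4136, 5502 and 4866 on DEX. In AS mice they were 5653, 5702, 5696 and 4959 on saline and 4968, 5493, 3815 and 5022 on DEX. Saline and DEX overlapped in each phenotype, and the lowest values of all 24 libraries were AS DEX mouse 60, control saline mouse 117 and PS DEX mouse 34, of which the last 2 were the libraries with the most olfactory bulb markers. The log2 fold change was -0.033 ± 0.11 (SE) in control, -0.28 ± 0.11 in PS and -0.20 ± 0.11 in AS mice, with adjusted p = 0.943, 0.238 and 0.381 in limma. Averaged over the phenotypes it was -0.17 ± 0.066 (95% interval -0.31 to -0.034, limma adjusted p = 0.104). This value lay at the threshold: without control saline mouse 117 it was -0.21 with an adjusted p of 0.0137, and without the 4 libraries rich in bulb markers -0.16 with 0.075, in the same limma model. It was also called with DESeq2 (-0.17, adjusted p = 0.0704), with quantile normalization (-0.18, 0.0483), with the 10-read filter (-0.17, 0.0998) and with the bulb markers as a covariate (-0.18, 0.0759), which makes 5 of 9 alternatives and 5 of 24 fits that left out 1 library. Over the 24 fits that left out 1 library the averaged value ran from -0.21 to -0.13, with limma adjusted p from 0.0137 to 0.188. The response of control mice itself moved from -0.033 to -0.16 without mouse 117, and that of PS mice from -0.28 to -0.15 without the 4 libraries. That of AS mice, -0.20 in the main fit, ran from -0.27 to -0.092 over the 24 fits without 1 library. Under stress alone Cnr1 differed by 0.11 in PS (95% interval -0.13 to 0.35) and 0.025 in AS mice (-0.21 to 0.26).

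Cnrip1, whose protein binds the tail of CB1, stayed between 1918 and 2433 normalized read counts in all libraries. Its group means ran from 2048 ± 77.0 (SD, n = 4) in control mice on DEX to 2219 ± 128 in AS mice on DEX. The averaged DEX response was 0.053 on the log2 scale (95% interval -0.022 to 0.13, limma adjusted p = 0.461). The 2 highest libraries were PS DEX mouse 34 and AS DEX mouse 60, at 2433 and 2390.1, the same libraries that were among the 3 lowest for Cnr1.

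Among the 2-AG synthesis genes, Dagla, the main 2-AG synthase of adult neurons, had its highest group mean in unstressed mice on saline, and no difference passed the test. Its normalized read counts were 5060.5, 4637, 4969 and 4154 in control, 3596, 4302, 3889.8 and 4099 in PS and 4509, 4160.2, 4159 and 3537 in AS mice on saline. The control mean of 4705 ± 410.3 (SD, n = 4) stood above 3971 ± 302 in PS and 4091 ± 405 in AS mice, with 1 control mouse (117) inside the range of the stressed mice. The log2 difference was -0.24 ± 0.073 (SE) in PS and -0.20 ± 0.073 in AS mice, with limma adjusted p = 0.132 and 0.317, so that neither was called. Both comparisons used the same 4 control mice. The PS difference passed in 1 of 10 alternatives, with DESeq2 (adjusted p = 0.0674). In limma it passed in 2 of the 24 fits that left out 1 library, without control saline mouse 117 (adjusted p = 0.0741) and without AS saline mouse 44 (0.0748). The remaining fits did not call it, with adjusted p up to 0.303 in the alternatives and 0.409 without 1 library. On DEX the means were 4239 ± 115.5, 3833 ± 134.5 and 3937 ± 276 in control, PS and AS mice. The DEX response was -0.15 in control mice (limma adjusted p = 0.348) and -0.049 and -0.052 in PS and AS mice.

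Daglb, the second diacylglycerol lipase, better known from microglia and macrophages, fell by a small amount after DEX. Control mice had 1619.8, 1546, 1456 and 1375 normalized read counts on saline and 1410.4, 1454, 1421 and 1274 on DEX. PS mice had 1344, 1450.0, 1497 and 1445 on saline and 1265, 1445, 1277 and 1310.2 on DEX. AS mice had 1474, 1532, 1463 and 1434 on saline and 1491, 1236, 1343 and 1339 on DEX. In each phenotype the mean was lower on DEX, and in each the groups overlapped. The averaged log2 response was -0.12 ± 0.037 (SE), so that the level fell by 7.82%, with limma adjusted p = 0.0401. The 3 single responses were near each other, at -0.11, -0.12 and -0.13 in control, PS and AS mice, and none was called alone (limma adjusted p = 0.471, 0.478 and 0.299). The averaged call held in all 24 fits that left out 1 library and in all 9 other alternatives, with adjusted p from 0.0132 to 0.0796. Of 7 microglia markers, none of them at 0 in any library, 3 were called lower and 0 higher in the averaged response, with a median log2 fold change of -0.053. Their summed level was 8675 to 9906 on saline and 8603 to 11029.6 on DEX in control mice, 9605 to 10255 and 8396 to 8964.0 in PS mice, and 10403 to 11085 and 8369 to 9796 in AS mice. The part of these cells in the Daglb difference was not tested.

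Napepld, which forms anandamide and other N-acylethanolamines, was the only 1 of the 9 genes called within a single phenotype, rising after DEX in control mice. Control mice had 455, 427, 466 and 429.7 normalized read counts on saline and 542, 595, 563 and 572 on DEX. All 4 DEX values lay above all 4 saline values, a separation that 10.1% of all genes showed in this comparison. The means were 444 ± 19.3 and 568 ± 22 (SD, n = 4), and the log2 fold change was 0.35 ± 0.10 (SE; 95% interval 0.15 to 0.56, limma adjusted p = 0.0426). PS mice had 461, 481, 482 and 416 on saline and 494, 502, 456 and 548 on DEX. AS mice had 539.7, 487, 517 and 449 on saline and 548, 592, 405 and 633 on DEX. The response was 0.12 in PS (95% interval -0.087 to 0.33) and 0.11 in AS mice (-0.095 to 0.32), and neither was called (limma adjusted p = 0.719 and 0.64). In the AS DEX group 3 mice were at 548 to 633 and mouse 60 was at 405, the lowest of all 24 libraries. Without mouse 60 the AS response was 0.25 with a limma adjusted p of 0.0616. The averaged response was 0.19 ± 0.058, a rise of 14.4% (limma adjusted p = 0.0265), and this call was lost without the 4 libraries rich in bulb markers (0.19, adjusted p = 0.102). The call in control mice was lost without control saline mouse 107 or 117 or control DEX mouse 108 (limma adjusted p = 0.119, 0.102 and 0.121) and without the 4 libraries rich in bulb markers (0.137), with log2 fold changes of 0.33 to 0.34. With the bulb markers as a covariate over all 24 libraries, the averaged call and the call in control mice were both kept. Markers of oligodendrocyte precursors, of which none was at 0 in any library, moved with Napepld. In control mice 2 of 3 (Pdgfra 0.37 and Gpr17 0.33 on the log2 scale) were called higher after DEX and Cspg4 was at 0.0086. Their summed level was 2835 to 3448 normalized read counts on saline and 3675 to 4238 on DEX, without overlap. In PS mice it was 2919 to 3109 and 2859 to 3345, and in AS mice 2515 to 3442 and 2663 to 3813. Over the 24 libraries Napepld had r = 0.63 with the mean log2 level of this list (0.577 within groups). Other lists reached similar sizes within groups, at -0.608 for GABAergic neurons (-0.255 over all libraries) and -0.585 for oligodendrocytes (-0.383). In control mice the oligodendrocyte list had a median log2 fold change of -0.304 after DEX, with 1 of 7 genes called lower and 0 higher. The part of any of these cell types in the Napepld difference was not tested.

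Among the hydrolases of 2-AG, Mgll, which clears most 2-AG in brain, rose in the averaged DEX response. Control mice had 11452, 9483, 9645 and 9313 normalized read counts on saline and 13819, 11727, 10786 and 12118.5 on DEX. PS mice had 11008, 12023.5, 10188 and 10803 on saline and 11128, 14010.4, 10937 and 12723 on DEX. AS mice had 12102, 10993, 10423 and 10850.3 on saline and 10608, 10479.8, 13102 and 12999 on DEX. The highest of all 24 libraries was PS DEX mouse 34. In control mice 3 of 4 DEX values lay above all saline values and control saline mouse 106, at 11452, overlapped. The log2 fold change was 0.28 ± 0.10 (SE) in control, 0.14 ± 0.10 in PS and 0.083 ± 0.10 in AS mice, with limma adjusted p = 0.107, 0.593 and 0.735. The average over the phenotypes was 0.17 ± 0.055, a rise of 12.4% (limma adjusted p = 0.0452). That call was lost after quantile normalization (0.14, adjusted p = 0.118) and without the 4 libraries rich in bulb markers (0.13, adjusted p = 0.201), both in limma. It was kept with the bulb markers as a covariate over all 24 libraries. The response of control mice alone was called with DESeq2 (adjusted p = 0.0726). On saline Mgll differed from control by 0.14 in PS (95% interval -0.052 to 0.34) and 0.16 in AS mice (-0.04 to 0.35).

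Abhd6 and Abhd12, the minor 2-AG hydrolases, and Faah were called in no comparison with limma. Abhd6 ran from 1250.3 to 1702 normalized read counts, with an averaged DEX response of 0.056 (95% interval -0.042 to 0.15, limma adjusted p = 0.583). Abhd12 ran from 6568 to 8311, with 0.057 (-0.018 to 0.13, adjusted p = 0.411). Faah, the anandamide hydrolase, ran from 3189 to 4148, with 0.048 (-0.022 to 0.12, adjusted p = 0.481). For these 3 genes the intervals of the averaged response reached at most 0.15 upward and -0.042 downward on the log2 scale. Those of single phenotypes were wider, such as -0.10 to 0.24 for Abhd6 in control mice. The group mean of Faah in control mice was 3536 ± 237.5 on saline and 3819 ± 238 on DEX (SD, n = 4), a log2 difference of 0.11 with a limma adjusted p of 0.385.

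Whether the response to DEX differed between phenotypes was tested with interaction terms. For PS against control mice, AS against control mice and AS against PS mice, 0 of 9 genes were called each time, beside 0%, 0.348% and 0% of all genes. At an unadjusted p below 0.05 the counts were also 0, 0 and 0, beside 9.98%, 13.5% and 2.44% of all genes, and edgeR and DESeq2 called 0 of 9 in each. Over all genes edgeR called 0, 77 and 0 in these terms, and DESeq2 23, 439 and 0. For Napepld the PS response minus the control response was -0.23 on the log2 scale (95% interval -0.53 to 0.059) and the AS response minus the control response -0.24 (-0.53 to 0.051), with limma adjusted p = 0.605 and 0.474. For Cnr1 these differences were -0.25 (-0.58 to 0.087) and -0.17 (-0.50 to 0.17). For Mgll they were -0.14 (-0.41 to 0.14) and -0.20 (-0.47 to 0.081). The intervals span differences as large as the responses themselves, and they do not show whether the responses were alike.

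Across the 24 libraries the 9 genes did not vary as 1 group. The strongest of the 36 pairwise correlations of log2 values were between Cnr1 and Cnrip1 (Pearson r = -0.663, Spearman rho = -0.541) and between Cnr1 and Abhd12 (r = -0.64, rho = -0.529). After removal of the group means they were -0.576 and -0.556. Mgll and Abhd6 varied together (r = 0.599), and so did Abhd12 and Cnrip1 (r = 0.58). The libraries share normalization and tissue makeup, and the values are given as a description. Several of the genes also varied with marker lists, among them those of GABAergic neurons (Gad1, Gad2, Slc32a1, Pvalb, Sst, Vip and Lhx6). With the mean log2 level of these 7 GABAergic genes, Cnr1 had r = -0.753 (-0.682 within groups), Abhd12 0.676 (0.659) and Cnrip1 0.65 (0.567), while Napepld had -0.255 (-0.608). With the 3 oligodendrocyte precursor markers the values within groups were of similar size, at 0.714 for Dagla (0.532 over all libraries), -0.696 for Abhd12 (-0.32), 0.665 for Cnr1 (0.361) and -0.614 for Cnrip1 (-0.493). With oligodendrocyte markers Cnr1 had -0.595 (-0.571 within groups). Other lists reached similar values for Faah (mural markers, 0.704 within groups) and Mgll (microglia, 0.693 within groups and -0.0434 over all libraries). For GABAergic markers without the 4 libraries rich in bulb markers, over 20 libraries, the values of Cnr1, Abhd12 and Cnrip1 were -0.684, 0.695 and 0.563. Within groups these 20 libraries gave -0.547, 0.771 and 0.364. The log2 of the summed markers weights the most abundant genes. With it in place of the mean the values were weaker over the 24 libraries, at -0.477, 0.27 and 0.442. Within groups they were -0.498, 0.23 and 0.479 over the 24 libraries and -0.172, 0.448 and 0.206 over the 20. In the DEX comparisons the GABAergic list itself had a median log2 fold change of 0.024 in the averaged response, with 1 of 7 genes called higher and 0 lower. The part of any of these cell types in the values of the 9 genes was not tested.

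**Figure D4:**
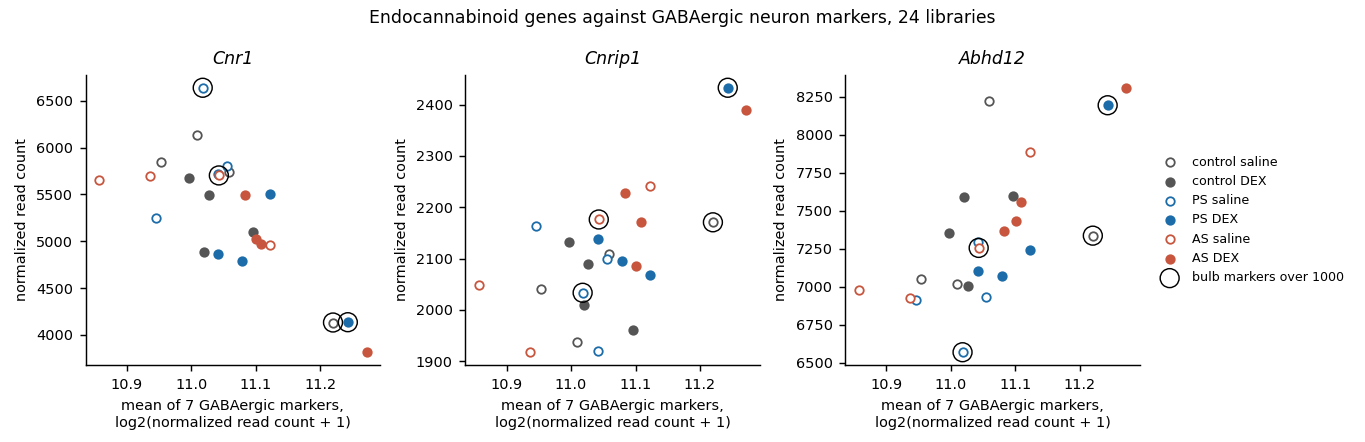
Normalized read counts of Cnr1, Cnrip1 and Abhd12 against the mean log2 level of 7 GABAergic neuron markers in the 24 libraries (open, saline; filled, DEX; grey, control; blue, PS; red, AS), with rings around the 4 libraries whose summed olfactory bulb markers exceed 1000 normalized read counts. Cnr1 is lowest in the 3 libraries with the highest marker level (r = -0.753), while Cnrip1 and Abhd12 tend upward (r = 0.65 and 0.676).

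The wider pathway was followed with a list of 43 genes, of which 33 were in the table used here and 10, the CB2 receptor Cnr2 among them, were not analysed. Under stress limma called 0 of 33 in PS against control, AS against control and AS against PS mice, beside 1.51%, 0.156% and 0% of all genes. At an unadjusted p below 0.05 the counts were 2, 4 and 1 of 33, beside 13.1%, 11% and 4.77% of all genes. For these 33 genes edgeR called 0 in each, and DESeq2 called 0, 1 (Plcb4) and 0. Over all genes edgeR called 212, 26 and 0, and DESeq2 431, 99 and 11. After DEX 3 were called in control mice (all higher), 1 in PS mice (higher), 5 in AS mice (3 higher and 2 lower) and 7 in the averaged response (6 higher and 1 lower). Over all genes the shares were 6.49%, 5.36%, 8.77% and 15.5%. The unadjusted counts after DEX were 5, 4, 9 and 11 of 33, beside 15.3%, 13.6%, 18.2% and 22.1% of all genes. The median log2 fold change of the 33 genes in the averaged response was 0.011, beside -0.0024 over all genes.

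The largest response belonged to Alox12b, a lipoxygenase of the family that can oxidize arachidonoyl lipids and is best known from skin. Its normalized read counts were 127, 152, 143 and 112 in control mice on saline and 449, 324, 364 and 418 on DEX. PS mice were at 125 to 189.8 on saline and 345 to 420.2 on DEX and AS mice at 131 to 167 and 294 to 508, with no overlap in any phenotype. Of all genes, 10.1%, 10.1% and 9.02% separated in this way in control, PS and AS mice. The log2 fold change was 1.54, 1.38 and 1.26 in control, PS and AS mice (limma adjusted p = 2.96e-07, 1.95e-06 and 8.86e-06). Ptgs2, the inducible cyclooxygenase that also oxidizes 2-AG and anandamide, rose in control mice, with 248 to 437 normalized read counts on saline and 508 to 632 on DEX (log2 fold change 0.63, limma adjusted p = 0.0116). Its lowest saline value, 248, was that of control mouse 117, and without this mouse the log2 fold change was 0.45 with a limma adjusted p of 0.0526. In PS and AS mice it was 0.11 and 0.14, and the interaction terms were not called (adjusted p = 0.416 and 0.289). Alox12b and Ptgs2 were both called higher by limma in the averaged response.

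Ppara, the nuclear receptor that N-acylethanolamines such as palmitoylethanolamide activate, rose in control mice, with 52.8 to 76.9 normalized read counts on saline and 104 to 142 on DEX. Its log2 fold change was 0.98 ± 0.26 in control mice (limma adjusted p = 0.0329) and 0.56 ± 0.15 in the averaged response (adjusted p = 0.0149). Without the 4 libraries rich in bulb markers the value of control mice was 0.90 with an adjusted p of 0.107. With the bulb markers as a covariate the call in control mice was kept. AS DEX mouse 60, at 42.9, was the lowest of the 24 libraries for this gene as it was for Napepld. The responses of PS and AS mice were 0.34 and 0.36 and were not called (limma adjusted p = 0.677 and 0.543), but without mouse 60 that of AS mice was 0.71 and was called (adjusted p = 0.0478). Hrasls, a phospholipid acyltransferase that can form the precursors Napepld acts on, rose by 0.20 ± 0.045 in the averaged response (limma adjusted p = 0.00266), with 0.20, 0.18 and 0.23 in the 3 phenotypes. Its call in AS mice alone (adjusted p = 0.0911) held in 10 of the 24 fits that left out 1 library.

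**Figure D5:**
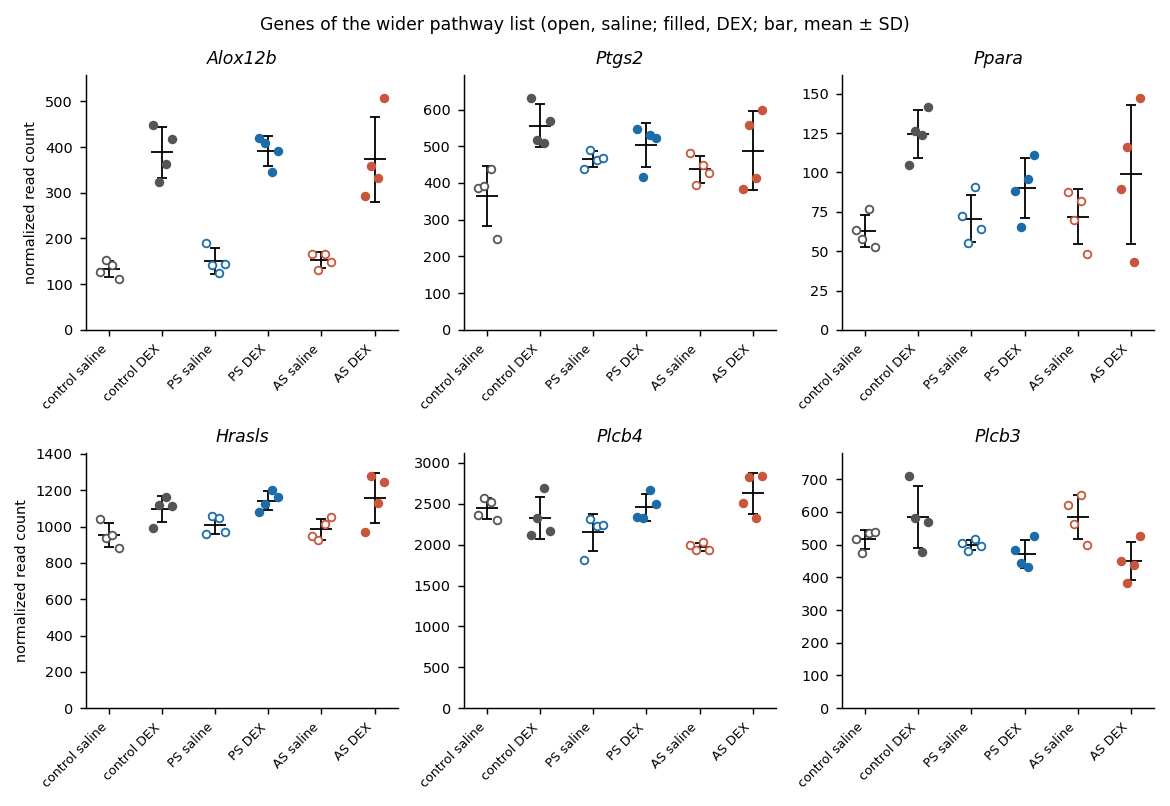
Normalized read counts of 6 genes of the wider pathway list in the 24 libraries (1 point per mouse, open for saline, filled for DEX), with the mean and SD of each group of 4. Alox12b separates saline from DEX in all phenotypes. Plcb4 lies at 1930.1 to 2029 in AS mice on saline and at 2329.8 to 2838 on DEX, and at 1816 to 2314 and 2324 to 2673 in PS mice.

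Among the genes that supply diacylglycerol, the substrate of Dagla and Daglb, the phospholipase C gene Plcb4 rose in AS mice. Its normalized read counts there were 1989.8, 1931, 2029 and 1930.1 on saline and 2507, 2829.6, 2329.8 and 2838 on DEX, without overlap (log2 fold change 0.41, limma adjusted p = 0.00279). PS mice were at 1816 to 2314 on saline and 2324 to 2673 on DEX, also without overlap (0.20, limma adjusted p = 0.247). Such a separation was seen for 10.1% of all genes in PS and 9.02% in AS mice. On saline the AS mean was 1970, beside 2149 in PS and 2443 in control mice (AS against control -0.31, limma adjusted p = 0.222). In control mice the DEX response was -0.075. The AS response exceeded it by 0.48 ± 0.12 (SE, limma adjusted p = 0.0972), a call that held in 7 of the 24 fits that left out 1 library. The AS and PS responses were not called different. Plcb3 fell in AS mice (-0.38, adjusted p = 0.0355), and Gnai2, an inhibitory G protein subunit that CB1 can use, fell there too (-0.31, adjusted p = 0.0272). In the averaged response Gnai2 (-0.17) fell, and the muscarinic receptor gene Chrm1 (0.10) and Plcb4 (0.18) rose, with limma adjusted p = 0.0239, 0.0901 and 0.0125. The call of Chrm1 held in 7 of the 24 fits without 1 library. In AS mice Plcb3 was not called without AS saline mouse 8 or 40 or AS DEX mouse 42 (limma adjusted p = 0.127, 0.143 and 0.155), nor Gnai2 without AS saline mouse 8 or AS DEX mouse 42 (0.115 and 0.121). In the DEX comparison of AS mice 4 of 7 endothelial markers and 3 of 5 mural markers were called lower and 0 higher. The summed endothelial level was 4579.8 to 7586 on saline and 3334 to 5220.3 on DEX, and the mural level 4351 to 7651 and 3315 to 4358. The part of these cells in the differences of Plcb3 and Gnai2 was not tested.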

How the data were processed

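The authors prepared strand-specific poly(A) libraries from PFC RNA, trimmed reads with fastp 0.20.1, aligned them to mm10 with HISAT2 2.2.1, counted them per gene with featureCounts (Subread 2.0, GENCODE vM22) and normalized them with DESeq2 1.36.0. The deposited signal values are these counts divided by 1 size factor per library. Per the file headers, the table also holds the authors' log2 fold changes and p-values, which were not used. Whole reads were recovered for 100% of values (within 0.01), which gave 21121869 to 59439645 reads per library. Averaged over genes, counting error at this depth was small beside the differences between mice. This average does not carry over to genes with few reads. In control mice on saline, Napepld had 337 to 412 reads per library and Ppara had 45 to 68. At such counts, counting error can be about as large as the spread within a group.

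Groups were taken from the sample labels. All 14074 genes were fitted with limma 3.58.1 (R 4.3.3) on log2(normalized count + 1), with 1 mean per group over the 24 libraries and eBayes with trend, and p-values were adjusted by Benjamini-Hochberg over all genes with a threshold of 0.1. The filter planned on the authors' p-value columns was replaced by all genes. Alternatives were a pseudocount of 8, a minimum mean of 100 normalized counts, at least 10 reads in each library, quantile normalization, depth as a covariate, the compared groups alone, edgeR 4.0.16 and DESeq2 1.42.0 on the recovered reads, each library left out in turn, and the fits without the 4 libraries with most olfactory bulb markers or with these markers as a covariate. The scripts were tested on simulated data. Libraries of a group differed by more than sampling noise (chi-square per gene at least 6.17), so that none was counted as a duplicate. Each library came from 1 mouse. Exonic lengths were those of GENCODE vM21, in which the 9 genes have the same identifiers and spans. Promoter sequences came from RefSeq (GRCm38.p6).

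The members and the gene lists were chosen with earlier results of these data known. Named were the 9 genes, the genes of the wider list called in at least 1 comparison, Fkbp5, for each of the 9 genes the 3 genes most like it over the libraries, and markers whose list moved with a gene. Correlations are descriptions. The wider list as used holds 43 genes, from which 1 gene of the original list was left out, and that gene is not reported here.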

Additional observations from a re-analysis of the deposited data

Results flagged for a closer look

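Single mice stood apart from the other 3 of their group in 5 of 108 groups of 4 that were examined, where chance gives about 1 in 20. The value given is the gap to the nearest mouse divided by the range of the group. Among the 9 genes these were Cnr1 in AS mice on saline (0.934, mouse 44 at 4959 normalized read counts, the nearest mouse at 5653), Mgll in control mice on saline (0.845, mouse 106 at 11452, nearest 9645), Abhd6 in PS mice on saline (0.936, mouse 2 at 1324, nearest 1454) and Abhd12 in PS mice on DEX (0.849, mouse 34 at 8195, nearest 7243). Fkbp5 had 1, in control mice on saline (0.903, mouse 109 at 888, nearest 773). Mice 2 and 34 were among the 4 whose libraries were rich in olfactory bulb markers, and mice 44, 106 and 109 were not.

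The response of Plcb4 to DEX differed between AS and control mice by 0.48 on the log2 scale in the interaction test (limma adjusted p = 0.0972). The call was lost in 17 of the 24 fits without 1 library and in 4 of 10 other fits, with adjusted p from 0.0169 to 0.277.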

How the results depend on the processing

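Of the values of the 9 genes over the comparisons, 2143 of 2160 that left out 1 library and 879 of 891 under other settings kept their side of the threshold, and no called value changed sign. Most of these values were far above the threshold, so the shares say little about the calls themselves. Calls were lost in 3 cases without 1 library and in 4 under other settings, and gained in 14 and 8. Most calls that moved lay near the threshold, but Napepld in AS mice went from a limma adjusted p of 0.64 to 0.0616 without mouse 60. In PS against control mice 1 gene (Dagla) was called with DESeq2, and 0 to 1 without 1 library. After DEX in control mice 2 genes were called with quantile normalization and 2 with DESeq2, 0 without the 4 libraries rich in olfactory bulb markers, and 0 to 2 without 1 library. After DEX in AS mice 0 to 1 was called without 1 library, and in the averaged response 3 to 5 (5 without AS saline mouse 44). Without the 4 libraries the averaged response kept Daglb (-0.15, limma adjusted p = 0.0132), gained Cnr1 (-0.16, 0.075) and lost Napepld (0.19, 0.102) and Mgll (0.13, 0.201). This fit has fewer samples. With the bulb markers as a covariate over all 24 libraries, Daglb, Napepld and Mgll kept their calls and Cnr1 was gained (-0.18, limma adjusted p = 0.0759). The cause of the difference between these 2 fits was not tested. The cause of the other changes was not tested. Counts over all genes moved more. In PS against control mice 213 became 57 to 348 without 1 library and 30 to 523 otherwise. In AS against control mice 22 became 12 to 49 and 5 to 99. After DEX 755 became 509 to 871 and 415 to 903 in PS mice, and 1234 became 673 to 1985 and 753 to 1614 in AS mice. The AS interaction went from 49 to 4 to 686 and 1 to 439, AS against PS mice from 0 to at most 11, and the PS interaction from 0 to at most 23. Another scaling shifted the median of all genes by at most 0.0108 (log2). The setting without a filter is the analysis as reported, and for the averaged response so is the fit of the compared groups alone. No paired analysis was possible because no mouse number recurs between groups. With 4 mice per group, a response in 1 phenotype had a standard error of 0.059 to 0.11 (log2) for the 9 genes, which limits what could be called.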

Other observations

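The genes whose levels varied most like each of the 9 over the 24 libraries, out of 12017 genes averaging 100 normalized counts or more, differed from member to member. The libraries share normalization and tissue makeup, and the values (Pearson r of log2 levels) are a description. Cnr1 was followed by Man1a2 (0.896), 1700025G04Rik (0.896) and Cmtm4 (0.883), Dagla by the P/Q-type calcium channel gene Cacna1a (0.898), Pip5k1c (0.879) and Extl1 (0.874), and Daglb by Wscd2 (0.797), Ntng2 (0.779) and Pnma1 (0.775). Napepld was followed by the sodium channel subunit gene Scn3b (0.88), Diaph1 (0.852) and Rnf169 (0.846). Mgll was followed by Thrsp (0.84), then Zfand3, then Asphd2 (0.826), Abhd6 by Lamp5 (0.837), Gstm5 (0.818) and the astrocyte enzyme gene Aldoc (0.796), and Faah by Slc9a5 (0.845), Kcnh4 (0.822) and Pias3 (0.799). Abhd12 was followed by Klhdc3 (0.899), Sult4a1 (0.869) and Atp6v0e2 (0.864), and Cnrip1 by Arf1 (0.816), Gnas (0.804) and Ak1 (0.792).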
